A study of Callithrix jacchus with 71 samples.

Results

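Marmoset induced neural stem cell-like cells (iNSLCs) were separated by CRABP1. The groups were chosen by the measured CRABP1 level itself: 41 of 65 iNSLCs had a value above 0 and 24 had a value of 0, out of 71 cells sequenced one by one. All 65 cells came from the clone E01F A-2 (written E01F A2 in the labels), which was made from dorsal skin fibroblasts of an embryonic marmoset. The fibroblasts had received episomal vectors for the human factors LIN28, L-MYC, OCT4, KLF4 and SOX2, together with EGFP and a mouse p53 of dominant-negative form, and the study found these vectors still present in early-passage iNSLCs. Both CRABP1 groups share this genotype, treatment and early passage. The other 6 cells are 4 ESCs of line No.40, 1 iPSC of line E01F A-2-2 and 1 E01F fibroblast. Each cell was sorted into its own well and its RNA was read by RamDA-seq, a method that covers transcripts along their length. The iNSLCs are 1 clone with 1 source in the labels, so cells are not replicates. Every difference given here describes these 65 cells, with no test and no p.

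CRABP1 encodes a cytoplasmic protein that binds retinoic acid. Retinoic acid is made from vitamin A by retinol and retinaldehyde dehydrogenases, enters the nucleus, acts on RAR and RXR receptors at target genes such as the HOX genes, and is broken down by CYP26 enzymes. In the embryonic hindbrain and spinal cord it gives cells their position along the body axis and favours neuron formation. CRABP1 is itself found in some neural progenitors, neural crest cells and young neurons. Its partner CRABP2 carries retinoic acid to the receptors.

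CRABP1 levels were spread over a wide range. Of the 65 iNSLCs, 63.1% had CRABP1 reads (exact Clopper-Pearson 95% interval 50.2% to 74.7%, which covers counting error only). Among the 41 cells above 0 the lowest value was 0.764 normalized counts, the median 20.04 and the highest 3028. Just inside the limit were cells 48, 58 and 31, with values of 0.764, 1.62 and 2.36, and just outside it lie the 24 cells at exactly 0. Of the cells above 0, 16 were under 10, 10 lay from 10 to under 100, and 15 were at 100 or more. These last 15 cells held 96.0% of all CRABP1 signal, and cell 40 alone held 27.2%. The highest 6 cells (cells 57, 27, 25, 36, 81 and 40) had 767, 924, 934, 1122, 1406 and 3028 normalized counts, above the next value of 503. For comparison, CRABP1 was 0, 0, 0.540 and 3.33 in the ESCs, 25.6 in the iPSC and 15.8 in the fibroblast.

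**Figure D1:**
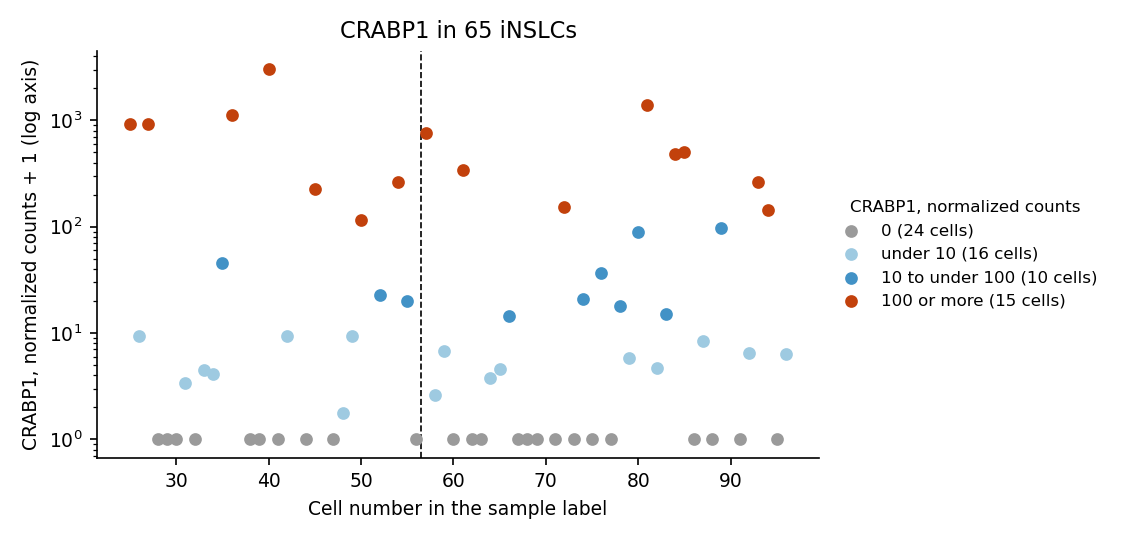
CRABP1 in each of the 65 iNSLCs (normalized counts + 1, log axis) against the number in the cell's label, coloured by CRABP1 level. The dashed line separates numbers 56 and below from 57 and above. Cells at 0 and cells at 100 or more occur on both sides, and the highest cell lies near 3028.

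The CRABP1 groups had similar depth within each range of cell numbers. The iNSLCs numbered 56 or below had more reads (median 357910) than those numbered 57 or above (median 208746), although the labels give these numbers no meaning, so each comparison was repeated within both ranges. CRABP1 reads were found in 17 of 27 cells in the lower range (63.0%, exact interval 42.4% to 80.6%) and in 24 of 38 cells in the upper range (63.2%, 46.0% to 78.2%). Over all cells, reads on genes ranged from 98507 to 598446 (median 272658) with CRABP1 and from 82268 to 695241 (median 206866) without it. The medians were 357910 with and 369216 without CRABP1 in the lower range, and 220684 with and 180574 without in the upper range. Median detected genes were 10880 and 10664.5 over all cells. The Spearman correlation of CRABP1 with total reads was −0.05 over the 27 cells of the lower range and 0.01 over the 38 cells of the upper range. Low CRABP1 still depends on depth, since 7 cells were called by 1 to 3 reads. When each cell was thinned to 100000 reads, 62 cells remained and 35 of them kept a CRABP1 read (56.5%, exact interval 43.3% to 69.0%), while 5 of 40 cells with CRABP1 lost it. A value of 0 therefore means no read at this depth and not that the gene was silent.

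By their list medians, neuronal genes were higher and cell cycle genes lower in the cells with CRABP1, whereas genes of the retinoic acid pathway were close to equal. The log2 ratio compares the mean with CRABP1 and the mean without it after adding 1 to each, over the 13602 genes that averaged 1 or more. It is called past the fold at 1 or more in size, a 2-fold change. On this measure 277 genes were higher with CRABP1 (2.04% of those compared) and 218 were lower (1.6%). Both counts include genes averaging under 1 in either group, which entered only through the other group and could differ only in that direction. The number of such genes is not given here. Past the fold in the same direction within both number ranges were 94 higher genes (0.691%) and 54 lower genes (0.397%), while 51 genes were past it in opposite directions in the 2 ranges. These counts depend on low values and on single cells: a pseudocount of 10 left 6 higher and 1 lower gene in both ranges, and leaving out cell 86 left 30 lower genes. The median log2 ratio over all genes was 0.02. The median was 0.89 for the 28 neuronal genes compared, −0.83 for 22 cell cycle genes, −0.47 for 16 dorsal neural tube genes, −0.15 for 16 HOX genes and 0.00 for 20 retinoic acid genes.

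**Figure D2:**
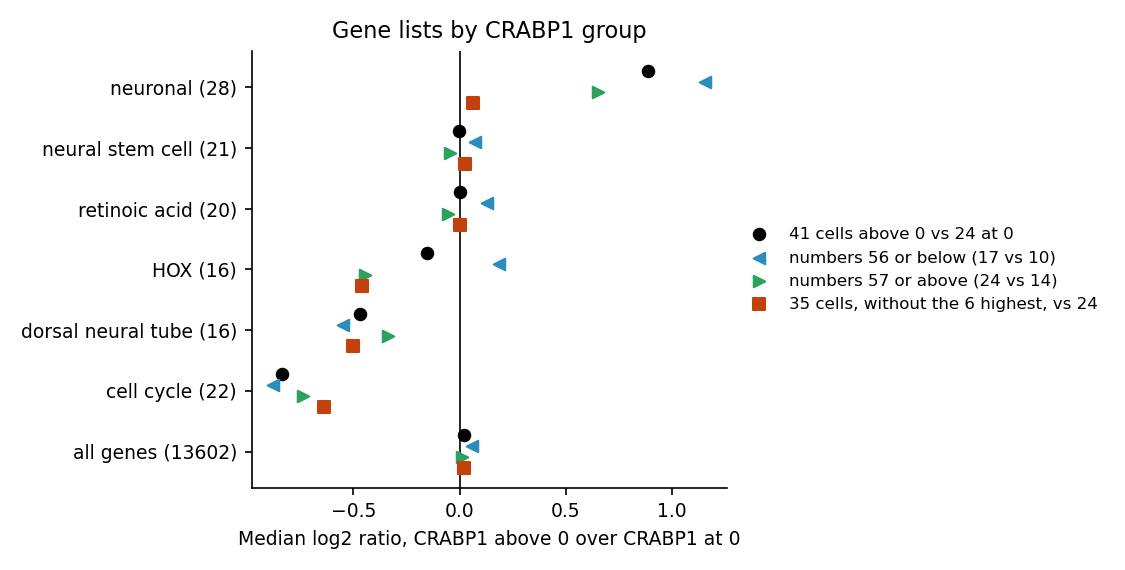
Median log2 ratio of each gene list between iNSLCs with and without CRABP1 (x axis; number of genes compared in parentheses), for all cells, for each range of cell numbers, and without the 6 cells with the most CRABP1. The neuronal median is 0.89 over all cells and 0.066 without those 6 cells, and the retinoic acid median stays near 0.

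The neuronal list holds genes of neuron commitment and of the young neuron. Of 45 genes listed, 36 are in the table, all 36 had reads and 28 were compared. Of these 28, 13 were past the fold higher, 0 were past it lower, and 9 were past it in both ranges: NHLH1, NHLH2, INSM1, DLL1, DCX, CNTN2, LHX5, SNAP25 and NEFM. Of these, INSM1, NHLH1, NHLH2 and LHX5 averaged under 1 without CRABP1 and entered the comparison only through the cells with it, so they could only be higher. Of the other 24 genes, 9 were past the fold higher, 5 of them in both ranges, and their median was 0.81. The median of all 28 neuronal genes was 1.16 in the lower and 0.65 in the upper range, against 0.06 and 0.01 over all genes. The summed neuronal signal ran from 334 to 2729 normalized counts with CRABP1 (median 682) and from 219 to 852 without it (median 499). The ranges overlap, but the highest sums are all in cells with CRABP1.

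NEFM, a neurofilament subunit of the axon, ran from 7.51 to 641 with CRABP1 (median 57.9) and from 0 to 99.5 without it (median 29.0). Its means were 99.8 and 34.3, a log2 ratio of 1.51 (1.90 and 1.32 in the lower and upper range). Its median was 29.0, 51.9, 65.4 and 77.4 in cells with CRABP1 at 0, under 10, from 10 to under 100, and at 100 or more, so it was higher in each class than in the one before, with overlapping cells. NEFL, another neurofilament subunit, had medians of 115, 194, 253 and 224 over the same classes and a log2 ratio of 0.81.

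DCX, a microtubule protein of migrating young neurons, had a median of 14.1 and a highest value of 349 with CRABP1, against 7.04 and 36.9 without it (log2 ratio 1.59). DLL1, a Notch ligand shown by cells that begin to become neurons, had a median of 32.9 and a highest value of 1088 with CRABP1, against 20.7 and 88.8 (log2 ratio 1.49). CNTN2, an axonal adhesion protein, had a median of 12.5 and a highest value of 729 with CRABP1, against 7.13 and 97.4 (log2 ratio 1.57). In these 3 genes the medians differ less than the means, because a few cells with CRABP1 are very high: the single highest cell held 20.7% of the DCX signal, 27.4% of DLL1 and 32.3% of CNTN2. Without that cell (cell 27, 57 and 81) the ratios were 1.24, 0.96 and 0.92. SNAP25, which acts in vesicle release at synapses, had reads in 24 of 41 cells with CRABP1 and in 7 of 24 without it, with means of 7.68 and 1.67, and after thinning in 21 of 40 and 6 of 22. NEUROG2, a neurogenic gene that acts earlier, had a log2 ratio of 0.14 (named after its value was seen). It averaged 13.2 in the 6 cells with the most CRABP1, 1.23 in the other 35 and 2.62 at 0.

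INSM1, NHLH1 and NHLH2, transcription factor genes switched on as a progenitor becomes a neuron, had reads in no cell without CRABP1. INSM1 was at 18.3, 187, 85.7, 29.8 and 109 normalized counts in cells 25, 27, 40, 57 and 81. NHLH1 was at 60.9, 6.92, 57.5 and 61.5 in cells 27, 36, 40 and 81, and NHLH2 at 12.6, 25.9 and 29.6 in cells 27, 40 and 81. These 6 cells are the 6 with the most CRABP1 of all 65. By the approximate rule of 3 divided by the number of cells, 0 of 24 cells without CRABP1 allows a share of up to 12.5% with a read. This bound is not an exact interval, and it limits detection at this depth and not expression. The mean over all 41 cells with CRABP1 was set against a floor of 3 reads over those 24 cells. It was at least 58.3-fold higher for INSM1, at least 25.3-fold for NHLH1 and at least 9.24-fold for NHLH2. These bounds allow for counting error only. They describe the 6 cells, since the other 35 cells with CRABP1 had no read of these genes either. The direction carries no weight, because the genes entered the comparison only through cells with CRABP1. The share of all genes with no read in those 24 cells is not given here. Whether this absence is particular to these genes was not tested. Without the highest cell of each gene (cell 27, 81 and 81) the bounds were 33.8, 17.4 and 5.35. LHX5, a LIM homeobox gene of early neurons, had reads in cells 27, 40 and 81 and also in cell 44, which had no CRABP1.

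The median of the neuronal list rested on these 6 cells. Without them, the other 35 cells with CRABP1 had a neuronal median log2 ratio of 0.066 against the 24 cells without it, and 199 genes instead of 277 were past the fold higher. The 6 cells alone gave a neuronal median of 2.63, where all genes had −0.15. Cells with CRABP1 under 10 gave 0, and cells with at least 10 gave 1.36. Not every neuronal gene was clearly higher in the 6 cells. Against the cells at 0, the log2 ratio was 0.25 for NEFL, 0.11 for BTG2, −0.01 for GAP43 and −0.57 for MAPT. RBFOX3 had no read in the 6 cells and averaged 1.74 at 0. The Spearman correlation of CRABP1 with the summed neuronal signal was 0.73 over the 27 cells of the lower range and 0.52 over the 38 cells of the upper range, as a description of cells that share a culture and differ in depth. The summed signal also had medians of 499, 612, 680 and 824 from the lowest to the highest CRABP1 class. NEFM was still higher without the 6 cells, with a mean of 86.5 in the 35 cells and 34.3 at 0.

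**Figure D3:**
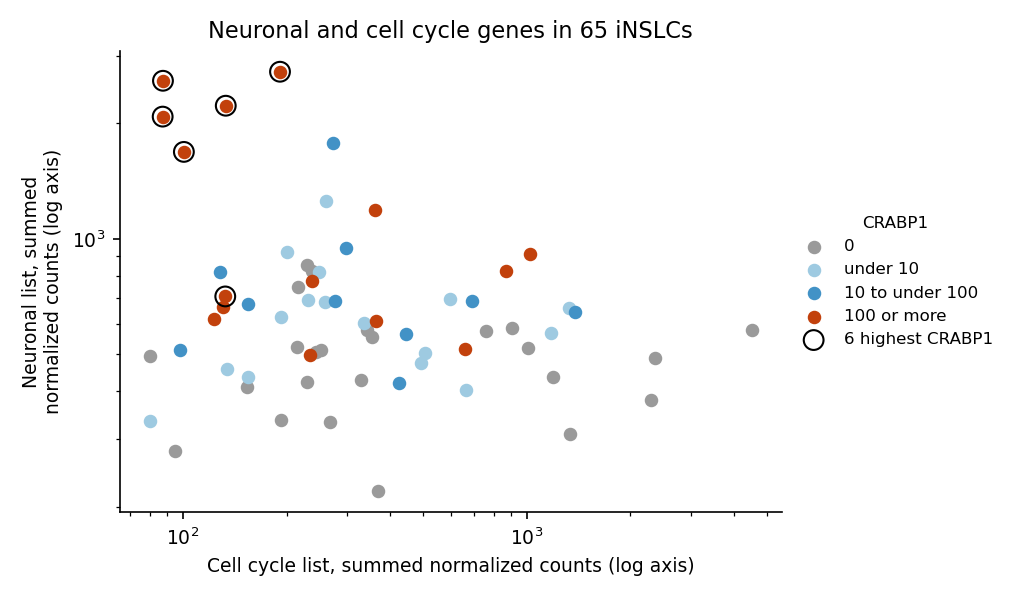
Summed normalized counts of the neuronal list (y axis) and the cell cycle list (x axis) in each of the 65 iNSLCs, both on log axes, coloured by CRABP1 level. The 6 cells with the most CRABP1 are ringed: 5 of them lie above 1600 on the neuronal axis, and all 6 lie below 200 on the cell cycle axis. Cells that are not ringed also lie past these limits, such as cell 80 at 1778 on the neuronal axis and cell 29 at 79.9 on the cell cycle axis.

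The 6 cells with the most CRABP1 were described further after their values were seen, so the genes below carry no weight as support. They comprise 4 cells of the lower and 2 of the upper number range. They had from 128113 to 357910 reads and from 8445 to 11602 detected genes, within the range of the cells at 0, and 5 of the 6 had fewer genes than the median of 10880. Their neuronal sums were 2084, 1686, 2585, 707, 2729 and 2225 (cells 57, 27, 25, 36, 81 and 40), and only cell 36 lay among the cells without CRABP1. In 7 genes (0.0515% of those compared) the lowest of the 6 cells lay above the highest of the 24 cells at 0: DCX, DCC, PCBP4, NNAT, CAMK2N1, LOC103796371 and LOC100394345. DCX ran from 87.2 to 349 in the 6 cells and reached 70.3 in the other 35 cells with CRABP1. DCC, a netrin receptor that guides axons, ran from 51.6 to 387 in the 6 cells, against at most 35.8 in the other 35 and 40.2 at 0. PCBP4, an RNA-binding protein, ran from 237 to 941, against at most 203 and 146. LOC103796371, which has no name in the table, ran from 1345 to 2714, against at most 560 and 459.

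Of named genes (LOC symbols left out) with reads in all 6 cells and a mean of at least 10 there, IGFBPL1 had the largest log2 ratio against the cells at 0. IGFBPL1, an IGF-binding protein-like gene, was at 16.1, 836, 363, 238, 84.3 and 398 in cells 57, 27, 25, 36, 81 and 40. It averaged 2.73 in the 24 cells at 0 and 2.68 in the other 35, a log2 ratio of 6.44. The other 9 of the leading 10 were CNTN2, CELF3, DCX, GADD45G, SRRM4, DLL1, DCC, GNG4 and ELAVL2, among which CELF3 and ELAVL2 encode neuronal RNA-binding proteins, GNG4 a G protein subunit and GADD45G a growth arrest protein. SRRM4, a splicing factor of neural microexons, averaged 21.1 in the 6 cells, 0.51 in the other 35 and 1.01 at 0. DRD2, a dopamine receptor gene, and SCRT1, a neuronal zinc finger gene, had reads in 5 and 4 of the 6 cells and in 0 of the other 59. Both were compared only because of their values in the 6 cells. The share of all genes read only in those cells is not given here.

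DLL1 divided the 6 cells. It was at 1088 in cell 57 and 645 in cell 25 and between 11.5 and 47.8 in the other 4. NHLH1 had the opposite pattern, with no reads in cells 57 and 25 and reads in the other 4. NOTCH1, the receptor for DLL1, was at 1281 in cell 57 and between 82.0 and 144 in the other 5, where the median of the other 59 iNSLCs was 328.

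The cell cycle list had a median log2 ratio of −2.47 between the 6 cells and the cells at 0, and HES1 and HES5 were also low in the 6 cells. HES1, a Notch target that holds progenitors back from differentiation, had reads in 1 of the 6 cells and in 54 of the other 59. HES5, another Notch target, averaged 1.36 in the 6 cells, 28.9 in the other 35 and 26.2 at 0. The proliferation marker MKI67 had reads in 2 of the 6 cells, at 11.5 and 4.51, and in 36 of the other 59. It averaged 39.2 in the other 35 and 87.2 at 0. BIRC5, which acts in mitosis, had no reads in any of the 6 cells and had reads in only 38 of the other 59. It averaged 23.3 in the other 35 and 41.6 at 0. Low values of these genes were thus also found outside the 6 cells. CCNA2, a cyclin, averaged 8.42 in the 6 cells and 7.73 in the other 35, against 23.7 at 0, with 23.3 and 20.3 in cells 25 and 40. SOX2, a neural stem cell factor that the vectors also carried, averaged 96.3 in the 6 cells, 97.2 in the other 35 and 99.7 at 0.

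**Figure D4:**
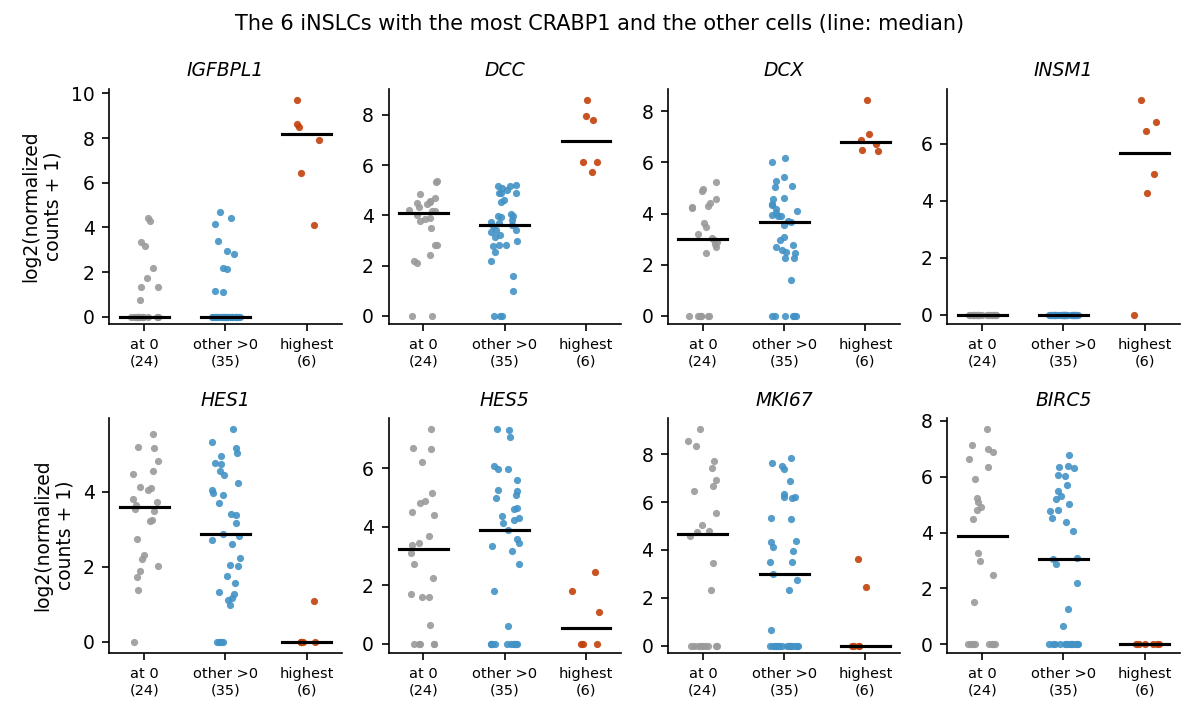
Levels of 8 genes, log2(normalized counts + 1), in the 24 iNSLCs at 0, the other 35 with CRABP1 and the 6 with the most CRABP1. Points are cells, moved sideways at random, and lines are medians. DCX and DCC lie above all other cells in the 6, HES1 and BIRC5 are at or near 0 there, and MKI67 is at 0 in 4 of the 6.

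Cell cycle genes leaned lower with CRABP1. Of 22 compared, 17 had a negative and 5 a positive log2 ratio, and 10 were past the fold lower and 0 higher. TOP2A, CCNA2, AURKB, BUB1 and PLK1 were past it lower in both ranges. Of the 10, AURKA averaged 0.38 in the 6 cells with the most CRABP1 and 1.04 in the other 35, against 3.42 at 0. Its mean with CRABP1 was under 1, so it entered only through the cells at 0 and could only be lower. The summed cell cycle signal ran from 80.0 to 1385 with CRABP1 (median 258) and from 79.9 to 4512 without it (median 299). The medians of the sum are close and the ranges overlap. The highest sums, 4512, 2362 and 2292, were in cells 47, 86 and 41, all without CRABP1. How far such cells account for the difference was not tested. MKI67 had a median of 4.51 and a highest value of 228 with CRABP1 against 24.5 and 533 without it (log2 ratio −1.34, and −0.98 without cell 47). TOP2A, the topoisomerase of dividing cells, had 11.0 and 227 against 16.6 and 750 (−1.62, and −0.93 without cell 47). CDC20, which triggers anaphase, had 8.96 and 229 against 7.15 and 1448, so its log2 ratio of −2.13 has a median that goes the other way.

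Cell 47, without CRABP1, held 27.0% of all CDC20 signal and 26.8% of all TOP2A signal. Without it the cell cycle median was −0.52 in place of −0.83. Without the 6 cells with the most CRABP1 it was −0.64. The Spearman correlation of CRABP1 with the summed cell cycle signal was −0.41 over 27 cells in the lower range and −0.02 over 38 in the upper.

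Of 31 retinoic acid genes listed, 27 are in the table, 25 had reads and 20 were compared. Of these 20, 1 was past the fold higher and 0 lower, and 17 had a log2 ratio under 0.5 in size. Their summed signal ran from 310 to 820 normalized counts with CRABP1 (median 489) and from 321 to 706 without it (median 530), and its medians were 530, 468, 505 and 501 from the lowest to the highest CRABP1 class. The binding and uptake genes came closest to CRABP1 in function. CRABP2 had a median of 41.6 (highest 107) with CRABP1 and 29.7 (highest 98.0) without it, with reads in 40 of 41 and 24 of 24 cells and a log2 ratio of 0.19. Its class medians were 29.7, 39.0, 40.8 and 56.5 from the lowest to the highest CRABP1 class, each higher than the one before, with overlapping cells. The 1 cell without CRABP2 reads was cell 27, one of the 6 with the most CRABP1, and the other 5 of them ranged from 11.4 to 72.2. FABP5, a fatty acid-binding protein that can also carry retinoic acid, had medians of 4.76 and 5.28 and a ratio of 0.08. STRA6, the receptor for retinol-carrying protein, was the gene past the fold, at 1.35. It had reads in only 10 of 41 and 5 of 24 cells, its sign differed between the ranges (−1.10 and 2.38), and without cell 76, which held 38.1% of its signal, the ratio was 0.72.

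Of the synthesis and removal enzymes, RDH11 was read in most cells and the others had low values or few cells with reads. The synthesis genes ALDH1A2, ADH5 and ADH7 are not in the table and were not analysed here. RDH10, which oxidizes retinol, averaged 4.54 with and 4.92 without CRABP1, and RDH11 averaged 14.1 in both. LRAT, which stores retinol as esters, averaged 2.98 and 3.56. ALDH1A3, a retinaldehyde dehydrogenase, and CYP26A1, which breaks down retinoic acid, had no reads in any iNSLC. ALDH1A1 had reads in 1 cell without CRABP1, CYP26B1 in 3 with and 5 without it, and CYP26C1 in 4 with and 0 without it. DHRS3, a reductase, averaged 1.64 and 1.91. RDH5, a retinol dehydrogenase, averaged 2.53 with and 0.88 without CRABP1, a ratio of 0.90. As it averaged under 1 without CRABP1, RDH5 entered the comparison only through the cells with it and could only be higher.

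The receptors were present in both groups. RARA ran to 203 with CRABP1 and 102 without it, with medians of 27.5 and 24.8 and a log2 ratio of 0.45. Its highest value was in cell 81, one of the 6 with the most CRABP1. RARG had a ratio of 0.07, RXRA of 0.00, RXRB of 0.19 and RXRG of −0.19. RARB, a receptor gene that retinoic acid itself induces, averaged 6.98 with and 14.7 without CRABP1, a ratio of −0.98 with medians of 4.54 and 5.56. Cell 30, without CRABP1, held 17.9% of the RARB signal, and without it the ratio was −0.51. Among cofactors the ratios were −0.03 for NCOA1 and NCOA3, 0.02 for NCOR1 and 0.01 for NRIP1. Of 12 further genes known to respond to retinoic acid, 0 were past the fold and the median was 0.13. MEIS3, a homeobox cofactor, had 0.40, NR2F1 0.17, MEIS1 0.16 and NR2F2 0.15.

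**Figure D5:**
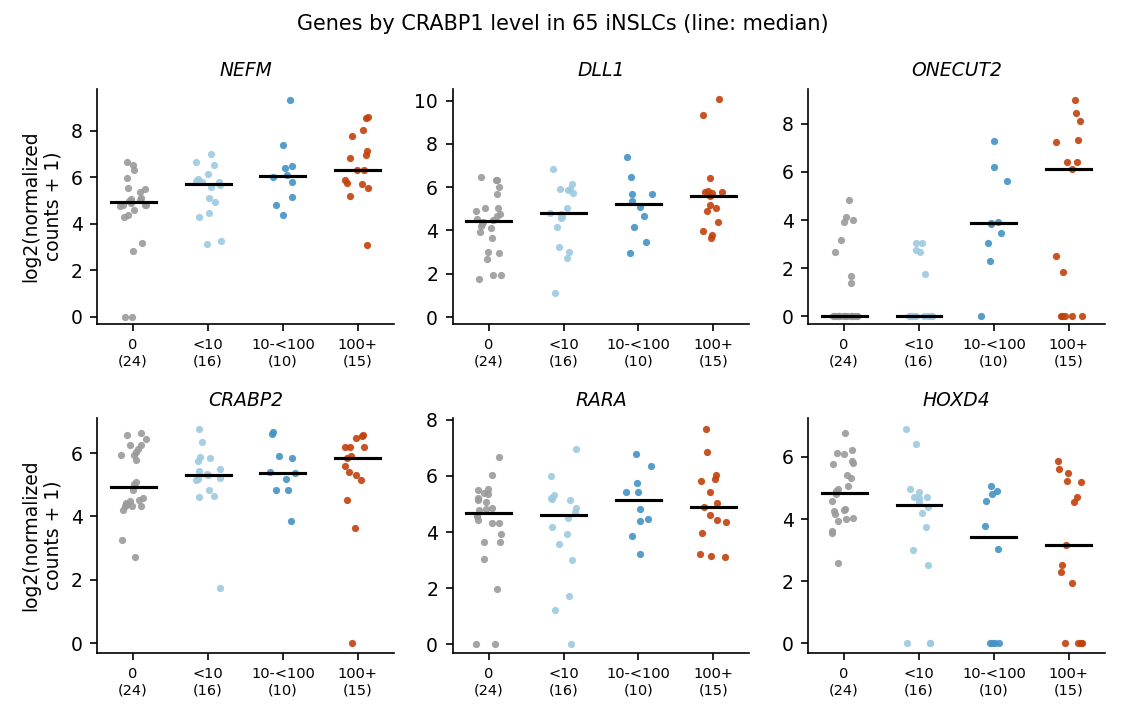
Levels of 6 genes, log2(normalized counts + 1), in iNSLCs with CRABP1 at 0 (24 cells), under 10 (16), from 10 to under 100 (10) and at 100 or more (15). Points are cells, moved sideways at random, and lines are medians. The medians of NEFM and CRABP2 are higher, and that of HOXD4 lower, in each class than in the one before, and ONECUT2 is above 0 in most cells from 10 upward.

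HOX genes, the position genes that retinoic acid can induce, were not higher with CRABP1. Of 39 listed, 31 are in the table, 29 had reads and 16 were compared. Of these, 0 were past the fold higher and 3 lower: HOXB9, HOXB6 and HOXC5. The median was 0.19 in the lower and −0.44 in the upper range, so its sign differed between them, and it was −0.30 without cell 57 and −0.10 without cell 68. Without the 6 cells with the most CRABP1 it was −0.46, and in those 6 cells alone it was 0.39. HOXD4, the most abundant HOX gene, had reads in 30 of 41 cells with CRABP1 and in 24 of 24 without it. Its median was 27.7, 21.1, 10.0 and 7.95 from the lowest to the highest CRABP1 class, and its log2 ratio was −0.76 (−0.54 and −0.87 in the ranges). The 6 cells with the most CRABP1 departed from this order, with HOXD4 at 25.2, 48.3, 36.6, 35.8, 43.3 and 22.6 in cells 57, 27, 25, 36, 81 and 40. After thinning to equal reads, HOXD4 was read in 27 of 40 cells with CRABP1 and 21 of 22 without it. The anterior genes HOXA3, HOXB2 and HOXD1 had ratios of 0.27, 0.00 and −0.18. HOXB6, past the fold lower in both ranges, had reads in 3 of 41 and 5 of 24 cells, with means of 1.07 and 3.89, and its ratio was −0.84 without cell 75. HOXB9 (means 1.39 and 10.0) was lower over all cells but had 0.43 in the lower range, and HOXC5 had means of 4.96 and 12.4.

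Dorsal neural tube genes leaned lower with CRABP1. Of 29 listed, 26 are in the table and 16 were compared, of which 13 had a negative and 3 a positive log2 ratio, 1 was past the fold lower and 0 higher. PAX3, a dorsal progenitor factor, had a median of 70.4 (highest 246) with CRABP1 and 82.8 (highest 385) without it, a ratio of −0.44. ZIC1 had medians of 26.9 and 61.2 (ratio −0.39), whereas ZIC2 had medians of 102 and 82.5 (ratio −0.08) and ZIC5 a ratio of −0.08. WNT3A, a roof plate signal, had reads in 7 of 41 and 6 of 24 cells and means of 3.03 and 13.3 (ratio −1.82). Cell 75 held 48.1% of it, and without that cell the ratio was −0.47. The list median of −0.47 was also −0.24 without cell 75, and −0.081 among genes averaging 10 or more. The summed dorsal signal had close medians, 367 with CRABP1 and 388 without it. Its Spearman correlation with CRABP1 was −0.05 in the lower and 0.02 in the upper range. Among intermediate and ventral genes, PAX6 had medians of 21.6 and 16.7 (ratio 0.22), IRX3 and IRX5 had ratios of 0.50 and 0.61, and PTCH1, a receptor of Sonic hedgehog, 0.03. The hedgehog target GLI1 had means of 0.48 and 2.28 and a ratio of −1.14, 1 of 5 genes compared, with a list median of 0.22. GLI1 averaged under 1 with CRABP1 and entered the comparison only through the cells at 0, so it could only be lower.

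Leading genes were picked among those that averaged 10 or more, with reads in at least 25% of cells, in the higher group. By the smaller of its ratios in the 2 ranges, ONECUT2, a homeobox gene of developing neurons, had the largest difference. It had reads in 24 of 41 cells with CRABP1, at up to 510, and in 8 of 24 without it, at up to 27.6. Its means were 50.0 and 3.76, a log2 ratio of 3.42 (3.50 and 3.35 in the ranges). The difference lay in cells with more CRABP1: its median was 0 below 10, 13.6 from 10 to under 100 and 68.1 at 100 or more, and the ratio of cells under 10 to cells at 0 was −0.79. In the 6 highest cells it was at 85.1, 510, 84.3 and 274 in cells 27, 25, 81 and 40 and at 0 in cells 57 and 36. After thinning to equal reads it was found in 24 of 40 cells with CRABP1 and in 8 of 22 without it.

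The other 9 leading genes were ROBO3, CELF3, PCDH17, OLFM2, DISP3, NEFM, DLL1, CNTN2 and DCX, of which 4 are on the neuronal list. That list holds 28 of the 13602 genes compared. The leading genes were picked for their ratios, so their place on a list carries no weight as support. ROBO3, a receptor that lets axons cross the midline, had means of 25.7 and 1.63. Cell 40 held 73.6% of it, and without that cell its ratio was 1.46 in place of 3.35. CELF3, a neuronal RNA-binding protein, had means of 24.01 and 6.25 (ratio 1.79), and PCDH17, an adhesion protein, 15.8 and 4.82 (1.52). PCDH17 had reads in 28 of 41 and 10 of 24 cells. OLFM2, a secreted olfactomedin protein, had medians of 19.8 and 7.04 (ratio 1.46).

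The 10 leading lower genes were PIF1, CDCA3, WNT3A, KIF18B, GAS2L3, ANLN, AURKB, SLITRK2, KIF20A and CCNF. AURKB is on the cell cycle list, which holds 22 of the 13602 genes compared. ANLN (anillin), KIF20A and KIF18B are also known to act in cell division and CCNF is a cyclin. These genes too were picked for their ratios, so their known roles carry no weight as support. PIF1, a DNA helicase, had means of 2.17 and 19.1 (ratio −2.67), CCNF 17.3 and 75.0 (−2.06), and KIF20A 5.61 and 25.2 (−1.99). Medians of PIF1, KIF18B and KIF20A were 0 in both groups, so a minority of cells carried these genes. SLITRK2, a neuronal membrane protein, had reads in 8 of 41 and 9 of 24 cells, with means of 11.6 and 33.7.

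Genes whose level ran most like CRABP1 over cells were found by Spearman correlation within each range, averaged over the 2 ranges, among the 6117 genes that averaged 10 or more. The middle 95% of these genes lay between −0.27 and 0.29. The highest were NEFM at 0.51, MICAL1 at 0.49, FAM222A and SLC49A4 at 0.47, and PAK1 and CECR2 at 0.44. MICAL1, which acts on actin filaments, had medians of 91.4 with and 49.9 without CRABP1 (log2 ratio 0.89). PAK1, a kinase of the actin cytoskeleton, had medians of 21.7 and 11.5 (1.01). The lowest were HTRA1 at −0.47, PADI3 and SYDE1 at −0.44 and DDI2 at −0.43. HTRA1, a secreted protease, had reads in all 24 cells without CRABP1, with a median of 36.7, and in 37 of 41 with it, with a median of 19.8 (ratio −1.01). PADI3, a peptidylarginine deiminase, had medians of 25.0 and 60.8 (−0.82).

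Markers of other cell types were measured beside these results, and their part in them was not tested. Of 21 fibroblast genes 19 had reads, and their sum ran from 277 to 2269 with CRABP1 (median 813) and from 393 to 1726 without it (median 793). PRRX1 and POSTN were at 0 in all iNSLCs, and DCN and LUM had reads in 1 cell each. COL1A2 was past the fold higher, with medians of 43.8 and 8.43 and means of 130 and 61.4 (ratio 1.07, and 0.78 without cell 50), while COL1A1 averaged 1.72 and 1.17. Of 16 neural crest genes 15 had reads, and their sum ran from 14.1 to 192 with CRABP1 (median 68.8) and from 17.6 to 164 without it (median 79.9). FOXD3 was at 0 and SOX10 had reads in 4 of 41 and 1 of 24 cells. TFAP2A, TFAP2B and NGFR were past the fold higher, and the single highest cell (cell 40, 81 and 27) held 86.2%, 73.9% and 40.8% of their signal. Without that cell the ratios were 0.37, 0.37 and 0.76. The 21 neural stem cell genes were all detected, 0 were past the fold, and the median was 0.00. NES, VIM and CDH2 had ratios of −0.19, 0.00 and 0.41, and NOTCH1 −0.40.

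Of 20 pluripotent genes measured, reads were found for 13, and their sum ran from 52.7 to 445 with CRABP1 (median 132) and from 42.5 to 251 without it (median 117). NANOG had reads in 1 cell. POU5F1, which is OCT4, was past the fold in both ranges, with reads in 18 of 41 cells at up to 117 with CRABP1 and in 6 of 24 at up to 16.3 without it. Its means were 11.1 and 1.91 (log2 ratio 2.06, 1.12 and 2.77 in the ranges), and 2 of the 6 cells with the most CRABP1 had its reads. LIN28A had medians of 60.8 and 42.9 and a ratio of 0.79. Both are carried by the vectors, and counts per gene cannot tell vector from endogenous RNA. The other vector genes had ratios of −0.04 for SOX2, −0.39 for KLF4 and 0.06 for MYCL (named after their values were seen).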

How the data were processed

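Single-cell RamDA-seq values of 65 iNSLCs, 4 ESCs, 1 iPSC and 1 fibroblast were read from the table the authors deposited. Its signal is the authors' TCC-normalized counts, made, by the submitters' notes on processing, with STAR 2.6.0c, Trimmomatic, Seurat 3.0.0 and featureCounts 1.5.1. For genome build, annotation and strand setting the entry is "not given in the sources used here", so reads of overlapping genes and near-identical copies cannot be told apart. Dividing by what 1 read is worth in a cell gave whole reads throughout (largest deviation 0.00116 reads, tolerance 0.02). An unnamed row, with up to 0.449% of the signal of a cell, was dropped.

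iNSLCs were grouped by CRABP1 above 0 or at 0, and means were compared as log2 ratios after a pseudocount of 1 for genes averaging 1 or more. CRABP1 was left out of the genes compared. Each GEO sample is 1 cell and the labels name no separate cultures, so no test was run. Shares have exact Clopper-Pearson intervals at 95%. Reads carry no molecular tags, so intervals and floors of 3 reads cover counting error only. Thinning to 100000 reads left out 3 cells, 1 with CRABP1 and 2 without. No doublet caller was run on these sorted cells.

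The groups, the number ranges and the 17 gene lists (339 genes, 44 not in the table) were chosen with earlier results of these data known. Named genes are CRABP1, retinoic acid genes averaging 1 or more, the 4 most abundant members of each other list, any member past the fold in both ranges, the 10 per direction whose smaller ratio of the 2 ranges was largest (averaging 10 or more and with reads in at least 25% of the cells in the higher group, LOC symbols left out), and the 6 most and 4 least like CRABP1. Enzymes and markers given only by cells with reads, list members given only by ratio, and genes of the 6 cells with the most CRABP1 fall outside this rule and were named after their values were seen. A few genes that the rule names are not reported here. Besides 10 alternative settings listed at the outset, 4 were added after seeing the data; their effect is given at the end. The ratio was tested on simulated data with known changes. Python 3.11.15, pandas 2.3.3, numpy 2.4.6, scipy 1.17.1 and matplotlib 3.10.9 were used.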

Additional observations from a re-analysis of the deposited data

Results flagged for a closer look

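CRABP1 in the ESCs was 0, 0, 0.540 and 3.33 normalized counts, from 0, 0, 1 and 4 reads. The highest (cell 14) was flagged because its gap of 0.838 of the whole range is past the 95% critical value of Dixon's test. Chance passes that value in about 1 in 20 groups. The rule is made for normally distributed values and not for a few reads in cells of unlike depth, so no conclusion is drawn from the flag. CRABP1 was also read in cells outside the comparison, at 25.6 in the iPSC and 15.8 in the fibroblast, each a single cell.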

How the results depend on the processing

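A pseudocount of 10 left 17 genes higher and 23 lower (6 and 1 in both ranges), with medians of −0.30 for dorsal, 0.44 for neuronal and −0.40 for cell cycle genes. A mean of at least 10 left 39, 48, 16 and 19 genes and a dorsal median of −0.081. Means of log2 values gave 69, 80, 19 and 20 genes and medians of −0.31, 0.38 and −0.38. After thinning 329 genes were lower, 104 in both ranges. The lower number range alone had 1160 genes higher and 789 lower, a retinoic acid median of 0.13, STRA6 at −1.10 and HOXB9 at 0.43. With at least 10 CRABP1 the neuronal median was 1.36. With CRABP1 under 10, 473 genes were lower (160 in both ranges, 49 higher), the neuronal median was 0, that of cell cycle −0.51, LHX5 −0.28 and ONECUT2 −0.79. Without the 6 cells with the most CRABP1, 54 genes were higher in both ranges, the medians were 0.066 and −0.64, and LHX5 was −0.28. Equal totals gave a cell cycle median of −0.73, and leaving out the 7 cells with the fewest genes −1.12. Leaving out 1 cell at a time gave 256 to 299 genes higher, 191 to 242 lower, 75 to 109 higher and 30 (without cell 86) to 78 lower in both ranges, and medians of −0.04 to 0.03 (retinoic acid), −0.30 to −0.10 (HOX), −0.54 to −0.24 (dorsal), 0.79 to 1.19 (neuronal) and −1.03 to −0.52 (cell cycle). The cause was not tested. For single named genes, 1327 of 1439 alternative values kept their sign. No paired analysis was possible because cells have no replicate pairs and no test was run.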

Other observations

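The 14 stress response genes had a median log2 ratio of 0.09 between iNSLCs with and without CRABP1, with 0 past the fold. JUN, an immediate early gene, had medians of 22.8 and 33.7 (ratio −0.86). HSPA5, a chaperone of the endoplasmic reticulum, had medians of 109 and 130, and its ratio was 0.66 in the lower and −0.81 in the upper number range. CDKN1A, a cell cycle inhibitor, also differed in sign between the ranges, at −1.38 and 0.38. The 14 housekeeping genes had a median of 0.00 and lay between −0.38 and 0.39, with GAPDH at 0.07 and ACTB at −0.11. Of 15 forebrain and midbrain genes measured, reads were found for 12, OTX2 and EMX2 had none, and only GBX2 was abundant enough to compare, with a ratio of 0.34.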
